A study of Homo sapiens with 32 samples.

Results

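These 10 genes encode chaperones of the endoplasmic reticulum (ER), helpers of those chaperones, the degradation factor HERPUD1 and XBP1, a transcription factor that switches such genes on. They were chosen by name, as the rows for HSPA5, HSP90B1, CALR, PDIA4, DNAJC3, DNAJB9, SDF2L1, CRELD2, HERPUD1 and XBP1, from 22610 gene entries. The rule uses no measured value, though the 10 names were picked with earlier results of these data known. All 10 were found, and all 10 were among the 12621 genes tested, which had a mean of at least 1 FPKM (sequenced fragments scaled by transcript length and by library size). Over the CBD time course they did not move as 1 block. XBP1, HERPUD1 and DNAJB9 were higher in CBD-treated cells at most times, HSPA5 was higher at 3 h and lower from 12 h on, and PDIA4, CALR and CRELD2 were lower late. The 3 h results of HSPA5 and HERPUD1 did not pass the test in every alternative run.

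RNA-seq was performed on SK-N-BE(2), an established human neuroblastoma cell line. Cells were exposed to 20 µM CBD (cannabidiol, a plant cannabinoid) delivered in ethanol, or to vehicle, which was 0.1% ethanol. Samples were taken at 3, 6, 12 and 24 h, each treatment and time having 4 replicates, so that 8 groups and 32 samples were compared. All samples come from 1 line that carries no engineered allele, and the labels do not say whether replicates came from separate experiments, so p-values measure the spread between these samples, which may be technical.

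Proteins that enter the secretory pathway fold inside the ER with the help of chaperones, and unfolded protein that builds up there sets off the unfolded protein response. That response has several arms. The membrane sensor IRE1 (gene ERN1) splices XBP1 mRNA into its active form, the sensor ATF6 is cut and travels to the nucleus, and the kinase PERK (gene EIF2AK3) slows translation and raises ATF4. ATF6 and XBP1 act on ER chaperone and degradation genes, whereas ATF4 acts on amino acid supply, redox and cell death genes. An FPKM value sums all forms of a gene, so spliced and unspliced XBP1 mRNA cannot be separated here.

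The lowest correlation between replicates of a group was 0.949 across genes, which does not show whether a single library weighed on the results. Read totals are not given in the table, and the relative depth estimated from low values ranged from 0.794 to 1.198 of the typical sample. The lowest was CBD replicate 1 of 12 h and the highest vehicle replicate 3 of 24 h. The mean relative depth was lower in CBD than in vehicle at every time, though the samples of the groups overlapped. All 10 neuroblastoma markers (such as PHOX2A, HAND2 and CHGA) had a mean of at least 1 FPKM, and 2 of 10 markers of other cell types did. Those 2 were COL1A1 and EPCAM, and EPCAM was the highest of the 10 with a mean of 2.51 FPKM. The median of the 10 means was 0.0672 FPKM. The leukocyte markers PTPRC and CD3E were at the low end of that list (0.00896 and 0.00178 FPKM), whereas CD68 averaged 0.669 FPKM.

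ATF6 and XBP1 recognise short DNA elements near the start of their target genes. The ER stress response element (ERSE) is spelled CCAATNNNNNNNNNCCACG, and its compact relative ERSE-II is ATTGG and CCACG with any 1 base between them. The ATF4 element (CARE) is spelled TGATGNAA and the core of the XBP1-preferred element (UPRE) TGACGTG. The 250 bases before each RefSeq start were searched on both strands, over 12 windows for the 10 genes, since PDIA4 and XBP1 have a pair of listed starts each. ERSE stood in 5 of the 12 windows, those of 5 genes, against 26 of 35116 windows of all genes (0.074%). ERSE-II stood before HERPUD1 and SDF2L1, against 18 windows of all genes (0.0513%). CARE stood before HERPUD1 alone, against 3.14% of all windows, and the UPRE core before none of the 10, against 1.68%. The elements were described from promoters of this kind, so their presence is background and not a result of the time course. The matches are shown to let a reader compare them, each read in the direction of its element, with the fixed letters in capitals.
HSPA5 ERSE, -66 to -48, plus strand of the gene: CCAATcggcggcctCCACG
HSP90B1 ERSE, -194 to -176, plus strand of the gene: CCAATcggaaggagCCACG
HSP90B1 ERSE, -89 to -71, minus strand of the gene: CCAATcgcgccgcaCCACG
HERPUD1 ERSE-II, -117 to -107, plus strand of the gene: ATTGGgCCACG
CALR ERSE, -225 to -207, minus strand of the gene: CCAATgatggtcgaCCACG
SDF2L1 ERSE-II, -188 to -178, minus strand of the gene: ATTGGtCCACG
XBP1 ERSE, -52 to -34, plus strand of the gene: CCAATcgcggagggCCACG
CRELD2 ERSE, -80 to -62, minus strand of the gene: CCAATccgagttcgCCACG

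DNAJB9, DNAJC3 and PDIA4 had none of these letters in their windows. Whole windows are shown for the stress chaperone gene that fell furthest and for the pair that rose together, on the gene's strand, with every match in capitals (GRCh38.p14, RefSeq). The HSPA5 window is chr9:125241344-125241593, on the minus strand, with ERSE in capitals. The XBP1 window is chr22:28800570-28800819, on the minus strand, also with ERSE in capitals. The HERPUD1 window is chr16:56931892-56932141, on the plus strand, with CARE (reversed) before ERSE-II in capitals.
HSPA5: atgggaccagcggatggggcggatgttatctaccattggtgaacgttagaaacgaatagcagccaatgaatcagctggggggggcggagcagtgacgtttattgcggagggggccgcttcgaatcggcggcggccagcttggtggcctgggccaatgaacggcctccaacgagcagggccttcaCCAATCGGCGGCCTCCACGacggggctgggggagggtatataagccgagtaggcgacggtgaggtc
XBP1: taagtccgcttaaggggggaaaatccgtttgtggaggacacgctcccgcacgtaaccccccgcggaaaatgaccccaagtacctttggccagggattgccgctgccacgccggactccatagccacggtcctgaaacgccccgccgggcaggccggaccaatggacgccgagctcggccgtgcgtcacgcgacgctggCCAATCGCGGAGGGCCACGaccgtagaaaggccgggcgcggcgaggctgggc
HERPUD1: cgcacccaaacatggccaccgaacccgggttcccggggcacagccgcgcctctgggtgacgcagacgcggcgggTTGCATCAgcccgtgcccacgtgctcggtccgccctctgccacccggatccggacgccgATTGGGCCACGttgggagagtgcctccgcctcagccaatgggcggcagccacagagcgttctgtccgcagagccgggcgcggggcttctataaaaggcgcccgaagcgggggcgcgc

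**Figure D1:**
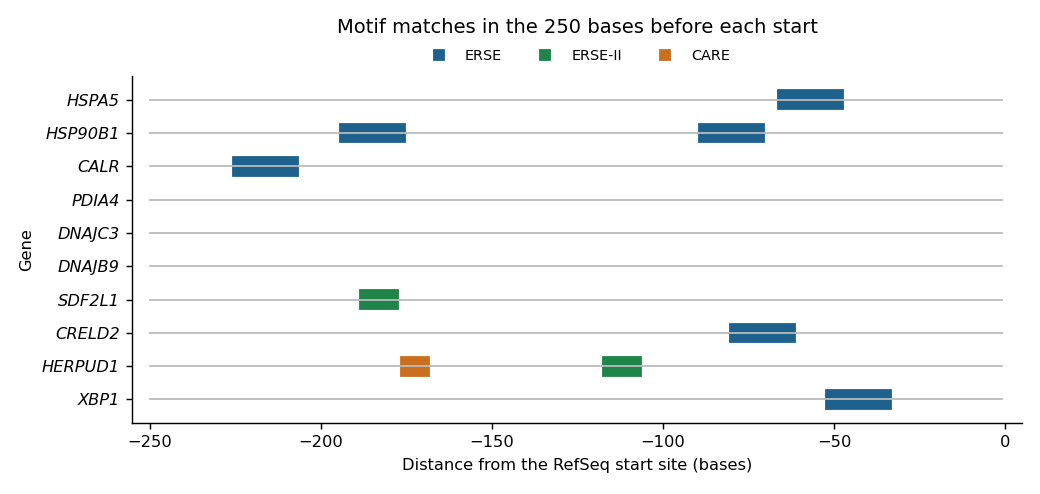
Positions of the element matches in the 250 bases before the start of each gene, in bases from the RefSeq start (for XBP1 and PDIA4 both windows are drawn on 1 line). HSPA5, CRELD2 and XBP1 have an ERSE close to a start, HSP90B1 has a pair of them, and the lines of PDIA4, DNAJC3 and DNAJB9 are empty.

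HSPA5 (also called BiP), on chromosome 9 (chr9:127997132-128003661 in GRCh37, the hg19 build of the files), is the HSP70 chaperone of the ER lumen and also holds the stress sensors inactive. At 3 h its FPKM was 63.5, 59.4, 63.6 and 64.3 in vehicle and 68.3, 70.5, 70.4 and 83.4 in CBD. At 6 h the values were 92.1, 88.7, 90.4 and 90.8 in vehicle and 99.1, 101, 97.7 and 109 in CBD. All CBD samples were above all vehicle samples at both early times. At 12 h vehicle gave 81.7, 83.04, 79.7 and 76.2 and CBD gave 55.2, 56.8, 56.3 and 60.5. At 24 h vehicle gave 48.01, 50.9, 50.3 and 51.9 and CBD gave 37.4, 36.1, 38.7 and 37.04. At both late times all CBD samples were below all vehicle samples. The mean in CBD differed from vehicle by 16.6% at 3 h (log2 fold change 0.21 ± 0.045 SE, adjusted p = 0.00428) and 12.3% at 6 h (log2 fold change 0.16 ± 0.045 SE, adjusted p = 0.0117), the latter missing the threshold of 0.01 used throughout but passing it under median-ratio scaling (adjusted p = 0.0055). It differed by -28.6% at 12 h (log2 fold change -0.48 ± 0.045 SE, adjusted p = 6e-09) and -25.8% at 24 h (log2 fold change -0.42 ± 0.045 SE, adjusted p = 1.65e-08). Fold changes and their standard errors (SE) are on the log2(FPKM + 1) scale, and adjusted p-values come from limma with Benjamini-Hochberg adjustment over all genes tested. In bulk RNA, fewer cells holding a transcript and less of it per cell cannot be told apart. The 3 h call ended without vehicle replicate 2 (adjusted p = 0.0222), without vehicle replicate 3 (0.0107) or without CBD replicate 4, the highest sample (log2 fold change 0.15, adjusted p = 0.013). It also ended in a fit of the 3 h groups alone (adjusted p = 0.166) and with relative depth as a term (0.0112).

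HSP90B1 (GRP94) on chromosome 12 (chr12:104323885-104347709) is the ER member of the HSP90 family. Its group means were among the highest of the 10 genes, from 157 ± 10.3 FPKM (SD, n = 4) in vehicle at 3 h to 209 ± 9.97 in vehicle at 12 h. At 24 h the samples gave 179, 172, 179 and 183 FPKM in vehicle and 149, 159, 162 and 159 in CBD. The groups did not overlap at 24 h, yet no CBD comparison passed the threshold for HSP90B1. The mean in CBD differed from vehicle by -11.9% at 24 h (log2 fold change -0.18 ± 0.071 SE, adjusted p = 0.0341), and a fit of the 24 h groups alone called it (adjusted p = 0.0019). At 3 h the CBD samples spread from 142 to 189.8 FPKM and overlapped the vehicle samples. The highest adjusted p was 0.721, at 6 h.

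CALR (calreticulin) on chromosome 19 (chr19:13049392-13055303) is a lectin chaperone that binds sugar chains of new glycoproteins and stores calcium. At 12 h its FPKM was 229.9, 227, 229 and 220.5 in vehicle and 206, 207, 204 and 209 in CBD. At 24 h it was 169.8, 177, 181 and 179 in vehicle and 139, 139, 141 and 140.2 in CBD. All CBD samples were below all vehicle samples at both times, and the CBD samples at 24 h lay within a few FPKM of each other. CALR in CBD differed from vehicle by -8.89% at 12 h (log2 fold change -0.13 ± 0.020 SE, adjusted p = 1.11e-05) and -20.8% at 24 h (log2 fold change -0.33 ± 0.020 SE, adjusted p = 2.58e-13). At 3 h it differed by 5.63%, without overlap, but the adjusted p was 0.0173.

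PDIA4 (ERp72) on chromosome 7 (chr7:148700154-148725754) forms and shuffles disulfide bonds in the ER. At 12 h it gave 32.8, 32.6, 32.8 and 30.6 FPKM in vehicle and 27.4, 28.2, 26.8 and 27.3 in CBD. At 24 h it gave 23.6, 25.3, 24.2 and 24.96 in vehicle and 20.6, 21.9, 21.2 and 21.2 in CBD. The groups stood apart at all 4 times, with CBD above vehicle early and below it late. PDIA4 in CBD differed from vehicle by 5.54% at 3 h (adjusted p = 0.0652) and 3.89% at 6 h (adjusted p = 0.137), neither a call. It differed by -14.7% at 12 h (log2 fold change -0.22 ± 0.025 SE, adjusted p = 1.21e-07) and -13.4% at 24 h (log2 fold change -0.20 ± 0.025 SE, adjusted p = 2.14e-07). The late calls of HSPA5, CALR and PDIA4 held in every alternative run.

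DNAJB9 (ERdj4) on chromosome 7 (chr7:108210311-108215294) is a J-domain partner of HSPA5 that also restrains IRE1. At 3 h its means were 9.17 ± 0.467 FPKM in vehicle and 9.09 ± 0.624 in CBD (SD, n = 4). At 12 h the samples gave 8.73, 8.82, 8.99 and 8.84 in vehicle and 10.8, 10.6, 10.5 and 10.7 in CBD. At 24 h they gave 8.56, 8.61, 8.66 and 8.82 in vehicle and 10.8, 10.1, 10.3 and 10.04 in CBD. From 6 h on, all CBD samples were above all vehicle samples. DNAJB9 in CBD differed from vehicle by 15.5% at 6 h (log2 fold change 0.19 ± 0.034 SE, adjusted p = 0.000244), 20.8% at 12 h (log2 fold change 0.25 ± 0.034 SE, adjusted p = 3.07e-06) and 19.1% at 24 h (log2 fold change 0.23 ± 0.034 SE, adjusted p = 3.03e-06). The 6 h call ended only in a fit of the 6 h groups alone (adjusted p = 0.0107).

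DNAJC3 (P58IPK) on chromosome 13 (chr13:96329393-96447242) is another J-domain partner of HSPA5 and an inhibitor of PERK. It had the lowest level of the 10 genes, with group means from 2.45 to 3.25 FPKM. At 3 h it gave 2.795, 2.76, 3.06 and 3.09 FPKM in vehicle and 2.41, 2.498, 2.65 and 2.67 in CBD. The CBD samples were below the vehicle samples there (-12.7%), with an adjusted p of 0.0148, and the groups overlapped at every later time. No CBD comparison called DNAJC3.

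SDF2L1 on chromosome 22 (chr22:21996591-21998588) binds HSPA5 and its J-domain partners in the lumen. At 6 h it gave 15.5, 14.97, 12.4 and 11.9 FPKM in vehicle and 16.9, 15.9, 17.1 and 17.96 in CBD. The lowest CBD sample was just above the highest vehicle sample, and the vehicle samples split into a higher and a lower pair. SDF2L1 in CBD differed from vehicle by 23.98% at 6 h (log2 fold change 0.30 ± 0.069 SE, adjusted p = 0.00279), which was its only call. That call ended without vehicle replicate 3 (log2 fold change 0.26, adjusted p = 0.017) or 4 (0.24, adjusted p = 0.0194) at 6 h. It also ended in a fit of the 6 h groups alone (adjusted p = 0.0685). At 24 h the means were 8.19 ± 0.781 FPKM in vehicle and 8.100 ± 0.6705 in CBD (SD, n = 4).

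CRELD2 on chromosome 22 (chr22:50311815-50321188) is a secreted-pathway protein that ER stress is known to induce. Its CBD and vehicle samples overlapped at 3, 6 and 12 h. At 24 h it gave 3.93, 3.82, 3.85 and 3.72 FPKM in vehicle and 2.98, 2.89, 3.11 and 3.15 in CBD. All CBD samples were below all vehicle samples. CRELD2 in CBD differed from vehicle by -20.8% at 24 h (log2 fold change -0.26 ± 0.044 SE, adjusted p = 1.94e-05), the same percentage as CALR, and its smaller log2 value reflects the 1 FPKM added to a low level.

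HERPUD1 on chromosome 16 (chr16:56966054-56978776) is an ER membrane protein that gathers the machinery for ER-associated degradation. At 3 h it gave 25.6, 24.6, 25.3 and 24.7 FPKM in vehicle and 30.8, 29.5, 29.8 and 30.9 in CBD. At 6 h it gave 25.8, 27.3, 25.1 and 25.1 in vehicle and 32.4, 35.7, 32.99 and 31.4 in CBD. All CBD samples were above all vehicle samples at both times. At 12 h it gave 27.4, 27.5, 26.1 and 24.9 in vehicle and 28.8, 30.3, 30.6 and 27.7 in CBD. At 24 h it gave 22.4, 24.01, 23.8 and 24.1 in vehicle and 38.96, 31.9, 39.2 and 29.9 in CBD. The groups did not overlap at these times either, the gap being narrow at 12 h, and at 24 h CBD replicates 1 and 3 were well above 2 and 4. HERPUD1 in CBD differed from vehicle by 20.8% at 3 h (log2 fold change 0.26 ± 0.059 SE, adjusted p = 0.00708), 28.3% at 6 h (log2 fold change 0.35 ± 0.059 SE, adjusted p = 0.00012), 10.9% at 12 h (log2 fold change 0.14 ± 0.059 SE, adjusted p = 0.0674) and 48.5% at 24 h (log2 fold change 0.54 ± 0.059 SE, adjusted p = 1.93e-08). The 12 h difference was not a call. The 3 h call ended without any 1 of the 8 samples (adjusted p from 0.011 to 0.0241), without the filter on low values (0.0123) and with depth as a term (0.0128).

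XBP1 on chromosome 22 (chr22:29190543-29196585) encodes the transcription factor of the IRE1 arm. At 3 h it gave 39.7, 36.8, 37.9 and 38.4 FPKM in vehicle and 47.98, 46.2, 46.3 and 47.9 in CBD. At 6 h it gave 43.99, 43.8, 40.8 and 42.4 in vehicle and 55.6, 58.9, 55.9 and 55.1 in CBD. These groups were far apart relative to their spread. At 12 h it gave 43.5, 41.2, 41.6 and 37.8 in vehicle and 43.5, 46.3, 47.00 and 42.2 in CBD, and the groups overlapped. At 24 h it gave 31.7, 33.3, 32.6 and 33.2 in vehicle and 44.4, 39.95, 44.8 and 35.1 in CBD. All CBD samples were again above vehicle, with replicate 4 the closest. XBP1 in CBD differed from vehicle by 23.3% at 3 h (log2 fold change 0.30 ± 0.052 SE, adjusted p = 0.000765), 31.9% at 6 h (log2 fold change 0.39 ± 0.052 SE, adjusted p = 4.21e-06), 9.08% at 12 h (log2 fold change 0.12 ± 0.052 SE, adjusted p = 0.0774) and 25.7% at 24 h (log2 fold change 0.31 ± 0.052 SE, adjusted p = 1.32e-05). Its calls at 3, 6 and 24 h held in every alternative run.

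**Figure D2:**
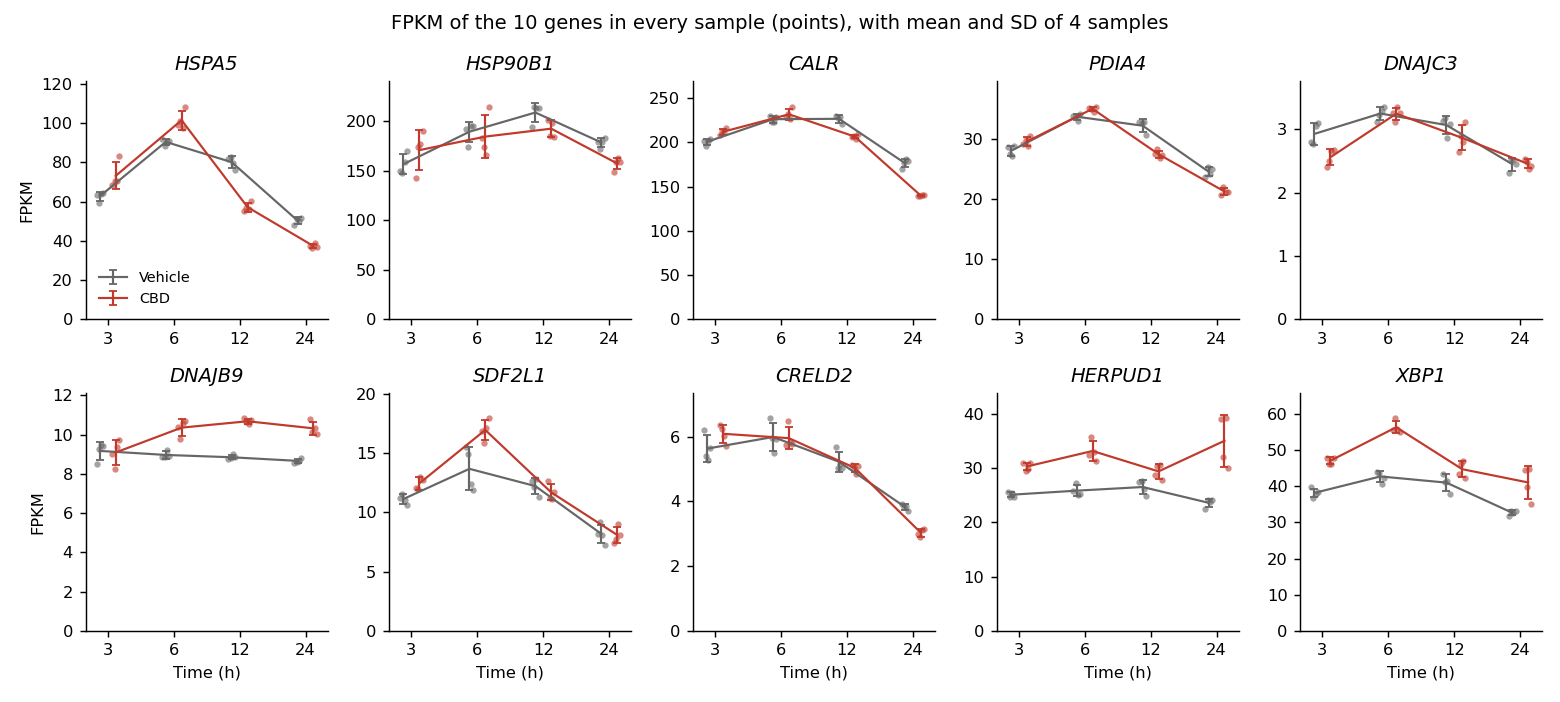
FPKM of each gene (vertical axis from 0, a scale per gene) at 3, 6, 12 and 24 h (evenly spaced on the horizontal axis), in vehicle (grey) and CBD (red), with a point per sample and lines through the mean with SD of 4 samples. In HSPA5 the red line starts above the grey line and crosses below it between 6 and 12 h, while in XBP1 and HERPUD1 the red means stay above the grey means at all 4 times.

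Counted over the 10 genes, 3 were called higher and 0 lower at 3 h, where 2.46% of all genes tested were called (1.18% higher and 1.28% lower). At an unadjusted p under 0.05 in the same limma fit, 7 were higher and 1 lower, against 12.9% and 10.3% of all genes at that unadjusted threshold. The 3 were XBP1, HERPUD1 and HSPA5. At 6 h 4 were higher (XBP1, HERPUD1, SDF2L1 and DNAJB9) and 0 lower, against 10.2% of all genes called, 4.07% higher and 6.13% lower, and at an unadjusted p under 0.05 limma gave 6 higher and 0 lower (14.1% and 18.1% of all genes). At 12 h 1 was higher (DNAJB9) and 3 lower (HSPA5, PDIA4 and CALR), against 20.1% of all genes, 8.85% higher and 11.2% lower. At 24 h 3 were higher (HERPUD1, XBP1 and DNAJB9) and 4 lower (HSPA5, CALR, CRELD2 and PDIA4), against 42.1% of all genes, 20.8% higher and 21.3% lower. The median log2 fold change of the 10 genes was 0.11, 0.11, -0.067 and -0.097 at 3, 6, 12 and 24 h, where the medians of all genes tested were 0.0066, -0.0048, -0.0043 and -0.0032. At 3, 6, 12 and 24 h the groups did not overlap for 7, 6, 5 and 8 of the 10 genes, against 9.88%, 19.6%, 30.3% and 51% of all genes tested. Over the 4 times 5 genes were called higher at least once and 4 were called lower at least once. HSPA5 was called in both directions, and HSP90B1 and DNAJC3 were called at no time. The share of all genes called at least once was not computed, and at 24 h alone it was 42.1%. These counts over the times are therefore a description only. At 3 h the count was 1 in place of 3 without vehicle replicate 2, without vehicle replicate 3 or without CBD replicate 4. Without any other 1 of the 8 samples it was 2, since HERPUD1 lost its 3 h call in all 8 runs.

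**Figure D3:**
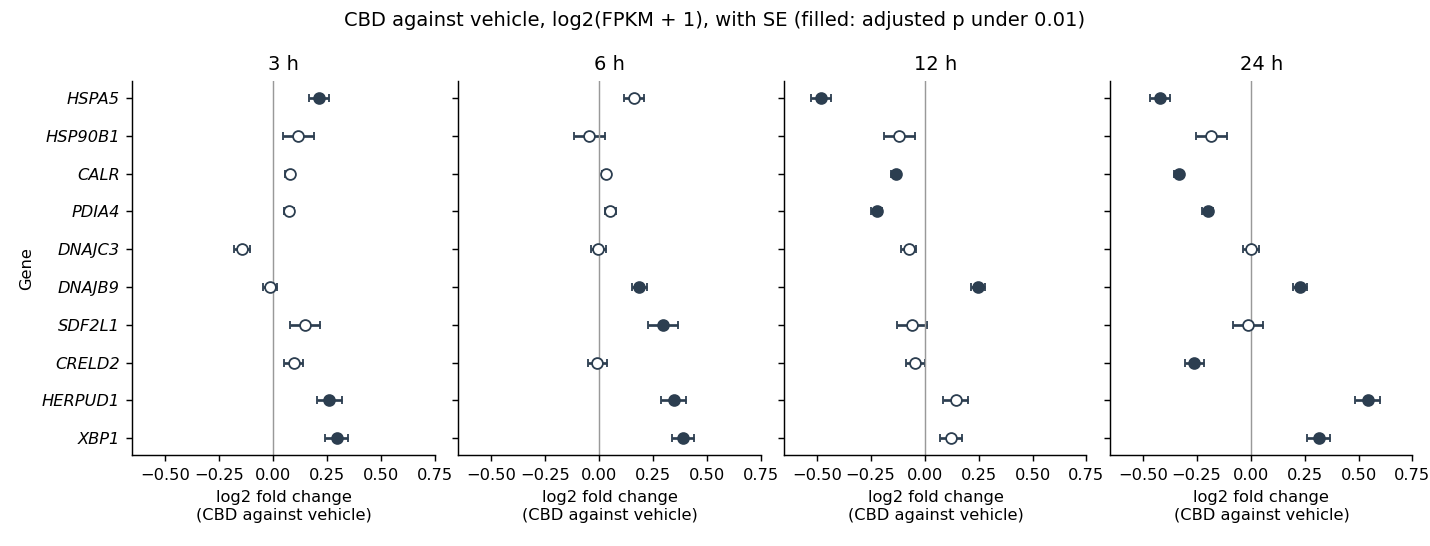
log2 fold change of CBD against vehicle on the log2(FPKM + 1) scale (horizontal axis) for the 10 genes at 4 times, with SE bars and filled points for an adjusted p under 0.01. HSPA5 moves from 0.21 at 3 h to -0.48 at 12 h, whereas XBP1, HERPUD1 and DNAJB9 lie right of 0 at 6, 12 and 24 h.

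The change of the CBD effect with time was tested as a difference of differences. From 3 to 12 h the effect fell for HSPA5 (log2 difference -0.69 ± 0.064 SE, adjusted p = 1.21e-08), PDIA4 (log2 difference -0.30 ± 0.035 SE, adjusted p = 9.93e-07) and CALR (log2 difference -0.21 ± 0.029 SE, adjusted p = 6.6e-06), and it rose for DNAJB9 (log2 difference 0.26 ± 0.048 SE, adjusted p = 0.000373). These 4 of 10 stand against 9.79% of all genes tested (5.71% with a fall and 4.08% with a rise). From 3 to 24 h, with 27.2% of all genes called (14.3% with a fall and 12.9% with a rise), the effect fell for HSPA5 (log2 difference -0.63 ± 0.064 SE, adjusted p = 1.45e-08), CALR (log2 difference -0.41 ± 0.029 SE, adjusted p = 1.41e-11), CRELD2 (log2 difference -0.36 ± 0.063 SE, adjusted p = 5.53e-05) and PDIA4 (log2 difference -0.27 ± 0.035 SE, adjusted p = 8.17e-07). It rose for DNAJB9 (log2 difference 0.24 ± 0.048 SE, adjusted p = 0.000267) and HERPUD1 (log2 difference 0.28 ± 0.083 SE, adjusted p = 0.00923). The HERPUD1 call ended without any 1 of 14 of the 16 samples (adjusted p from 0.0105 to 0.028), holding only without CBD replicate 2 or 4 of 24 h. It also ended in a fit of those groups alone (0.0376), without the filter on low values (0.0149) and with depth as a term (0.0116). For XBP1 the effects at 3 and 24 h differed by 0.019 ± 0.074 (SE, adjusted p = 0.866). HSP90B1 missed both calls, and without CBD replicate 1 of 3 h passed them (log2 difference -0.32, adjusted p = 0.00982, and -0.38, adjusted p = 0.000998).

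The step from 6 to 12 h was examined after the values had been seen. Across it the effect fell for HSPA5 (log2 difference -0.64 ± 0.064 SE, adjusted p = 1.9e-07), PDIA4 (log2 difference -0.28 ± 0.035 SE, adjusted p = 1.33e-05) and CALR (log2 difference -0.17 ± 0.029 SE, adjusted p = 0.000487), and rose for none of the 10, where 2.33% of all genes were called (0.895% with a fall and 1.43% with a rise). At an unadjusted p under 0.05 limma gave 6 that fell and 0 that rose (10.6% and 10.1% of all genes). XBP1 (log2 difference -0.27 ± 0.074 SE, adjusted p = 0.0277) and SDF2L1 (log2 difference -0.36 ± 0.10 SE, adjusted p = 0.0265) missed the threshold, SDF2L1 passing it without vehicle replicate 1 of 6 h (log2 difference -0.42, adjusted p = 0.00954) and with depth as a term (0.00892).

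In vehicle alone between 3 and 6 h, a comparison likewise added after the values were seen, 5 rose and 0 fell, where 9.48% of all genes were called (6.26% higher and 3.22% lower), and at an unadjusted p under 0.05 limma gave 7 and 0 (20.5% and 12% of all genes). HSPA5 rose most (log2 difference 0.52 ± 0.045 SE, adjusted p = 3.59e-08), from 62.7 ± 2.23 to 90.5 ± 1.43 FPKM (SD, n = 4), so the vehicle change over those hours was larger than the CBD difference at either time. PDIA4 (log2 difference 0.26 ± 0.025 SE, adjusted p = 1.49e-07), CALR (log2 difference 0.17 ± 0.020 SE, adjusted p = 3.47e-06), HSP90B1 (log2 difference 0.27 ± 0.071 SE, adjusted p = 0.0082) and SDF2L1 (log2 difference 0.27 ± 0.069 SE, adjusted p = 0.00731) rose as well. The calls of HSP90B1 and SDF2L1 each ended without any 1 of 6 of the 8 samples (adjusted p from 0.0157 to 0.0343 and from 0.0125 to 0.0423). Both calls also ended without a filter, under median-ratio scaling, under quantile normalization and in a fit of those groups alone (adjusted p from 0.0102 to 0.0207 and from 0.0101 to 0.0744). In vehicle 6 of the 10 genes had their highest mean at 6 h and 3 at 12 h, and 9 had their lowest at 24 h. The same count over all genes was not made, so the times of highest and lowest mean are a description only.

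Between 3 and 24 h in vehicle 7 of the 10 genes fell and 0 rose, where 57.8% of all genes were called (26.6% higher and 31.1% lower), and at an unadjusted p under 0.05 limma gave 8 that fell and 1 that rose (36.9% and 31.5% of all genes). The 7 of 10 called are close to the share of all genes called in either direction. All 7 fell, however, where 31.1% of all genes were called lower. CRELD2 (log2 difference -0.46 ± 0.044 SE, adjusted p = 1.17e-09), SDF2L1 (log2 difference -0.40 ± 0.069 SE, adjusted p = 1.03e-05) and HSPA5 (log2 difference -0.31 ± 0.045 SE, adjusted p = 9.88e-07) fell most, and XBP1, DNAJC3, CALR and PDIA4 fell by 0.22, 0.19, 0.18 and 0.18. In CBD over the same hours 6 fell and 2 rose, against 67.8% of all genes called (35.7% lower and 32.1% higher). HSPA5 fell by 0.95, CRELD2 by 0.81, CALR by 0.60, SDF2L1 by 0.57, PDIA4 by 0.46 and XBP1 by 0.20 on the log2 scale, and HERPUD1 and DNAJB9 rose by 0.19 and 0.17. The HERPUD1 rise ended without any 1 of 4 samples (adjusted p from 0.0119 to 0.0341) and in a fit of those groups alone (0.0867), which also ended the calls of DNAJB9 (0.015) and XBP1 (0.0448). Under quantile normalization XBP1 lost its call in both time comparisons (adjusted p = 0.0119 in vehicle and 0.176 in CBD), and DNAJC3 in CBD gained one (log2 difference -0.22, adjusted p = 3.89e-06, against -0.043 and 0.286 without it). HSP90B1 was not called from 3 to 24 h in vehicle (log2 difference 0.19 ± 0.071 SE, adjusted p = 0.0213), but 4 settings beside a looser threshold called it higher. These were median-ratio scaling (0.21, adjusted p = 0.00998), quantile normalization (0.26, adjusted p = 0.00305), a fit of those groups alone (adjusted p = 0.00765) and leaving out vehicle replicate 4 of 3 h (0.23, adjusted p = 0.00952). In CBD HSP90B1 was called without CBD replicate 1 of 3 h (-0.19, adjusted p = 0.00866). DNAJB9 in vehicle was called only without vehicle replicate 1 of 3 h (-0.11, adjusted p = 0.00688).

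Ordered by level over the 8 groups, HSPA5 ran from 102 ± 4.83 FPKM in CBD at 6 h down to 37.3 ± 1.09 in CBD at 24 h (SD, n = 4). Neighbours in its order did not overlap except vehicle 12 h with CBD 3 h and vehicle 3 h with CBD 12 h. PDIA4 had the same order as HSPA5, with overlap only between vehicle 3 h and CBD 12 h. In XBP1 CBD 6 h was highest and vehicle 24 h lowest, each apart from its neighbour, and each of the 6 groups between them overlapped the next. In HERPUD1 all 4 CBD groups stood above all 4 vehicle groups, and the highest pair, CBD 24 h and CBD 6 h, overlapped. In DNAJB9 the CBD groups of 6, 12 and 24 h overlapped each other above the rest. In HSP90B1 and DNAJC3 every neighbour overlapped.

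Likeness of the 8 group means of log2(FPKM + 1) is given as a description, since the points share samples and time. HSPA5 and PDIA4 were the most alike of the 45 pairs (Pearson r = 0.994), followed by PDIA4 and CALR (r = 0.960). HERPUD1 and CALR were the least alike (r = -0.262). Against the mean pattern of the 10 genes, SDF2L1 gave r = 0.983, and HERPUD1 and DNAJB9 gave 0.232 and 0.237. Each of the 10 genes is part of that mean, which raises its own r, so these values do not compare with those of other genes. The 5 other genes whose group means followed that mean pattern most closely were GIPC1, HSPA1A, CHORDC1, C1orf216 and HSPA1B, with r from 0.965 to 0.977 over 8 group means. HSPA1A and HSPA1B encode the inducible HSP70 of the cytosol, and CHORDC1 a partner of HSP90. With CBD, HSPA1B was higher at 3 h (log2 fold change 0.38, adjusted p = 6.28e-07) and 6 h (0.50, adjusted p = 6.44e-10) and lower at 24 h (-0.31, adjusted p = 2.82e-07). HSPA1A was likewise higher at 3 h (0.34, adjusted p = 1.19e-05) and 6 h (0.40, adjusted p = 1.19e-07) and lower at 24 h (-0.18, adjusted p = 0.000857). Neither HSPA1A nor HSPA1B was called at 12 h (adjusted p = 0.281 and 0.561 by limma). These 2 genes are near-identical copies, so the split of reads between them is uncertain. GIPC1, CHORDC1 and C1orf216 were called at no time, with lowest adjusted p of 0.28, 0.0912 and 0.688 by limma.

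Other genes of ER protein handling were counted against all genes tested, of which limma called 2.46%, 10.2%, 20.1% and 42.1% at the 4 times in order. By direction, 1.18%, 4.07%, 8.85% and 20.8% were called higher and 1.28%, 6.13%, 11.2% and 21.3% lower. At an unadjusted p under 0.05 12.9%, 14.1% and 17.5% of all genes were higher and 10.3%, 18.1% and 22.1% lower at the first 3 times. Of 36 further folding and disulfide genes tested, 0 were called by limma at 3 h (2 higher and 7 lower at an unadjusted p under 0.05), 1 rose and 5 fell at 6 h, 4 rose and 12 fell at 12 h, and 10 rose and 11 fell at 24 h, with a median log2 fold change between -0.045 and -0.0049 over the 4 times. HYOU1, the large HSP70-like chaperone of the ER, was uncalled at 3 and 6 h and fell by 0.15 at 12 h (adjusted p = 1.66e-05) and by 0.16 at 24 h (adjusted p = 2.7e-06). At 24 h P4HB, a protein disulfide isomerase, fell by 0.27 (adjusted p = 2.41e-12) and the J-domain protein DNAJC1 rose by 0.66 (adjusted p = 1.3e-08).

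Of 23 genes of ER-associated degradation, 0 rose and 1 fell at 3 h by limma (3 and 3 at an unadjusted p under 0.05), 2 rose and 1 fell at 6 h, 2 rose and 5 fell at 12 h, and 4 rose and 8 fell at 24 h. EDEM3, a mannosidase-like factor, was the 1 that fell at 3 h (-0.24, adjusted p = 0.00231). EDEM1, its relative and an XBP1 target, rose at 6 h (0.18, adjusted p = 0.00604) and 24 h (0.22, adjusted p = 0.000158). SEL1L, the partner of the HRD1 ligase, fell at 12 h (-0.15, adjusted p = 0.00014) and 24 h (-0.10, adjusted p = 0.00366). The lectin OS9 had the lowest value at 24 h (-0.35, adjusted p = 1.38e-11). Of 26 translocation and export genes, 0 rose and 1 fell at 3 h by limma (0 and 2 at an unadjusted p under 0.05), 6 rose and 1 fell at 6 h, 2 rose and 3 fell at 12 h, and 7 rose and 5 fell at 24 h. SSR1 fell at 3 h (-0.11, adjusted p = 0.00261), and at 24 h the coat subunit SEC24D rose (0.26, adjusted p = 1.88e-11) and the channel subunit SEC61G fell (-0.24, adjusted p = 3.46e-06).

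Of 11 sensors and their regulators none was called at 3 or 6 h by limma, where 1 higher and 1 lower had an unadjusted p under 0.05 at each time. At 12 h 1 rose and 0 fell by limma (1 and 2 at an unadjusted p under 0.05), and 3 rose and 1 fell at 24 h. ERN1, which encodes IRE1, rose at 24 h (0.37, adjusted p = 3.28e-07), as did ATF6 (0.19, adjusted p = 1.78e-06). CREB3, an ATF6-like factor, fell (-0.17, adjusted p = 0.00332), and EIF2AK3 gave -0.086 (adjusted p = 0.024). Of 15 ER calcium genes 1 rose and 0 fell at 3 h (1 and 0 at an unadjusted p under 0.05), 0 were called at 6 h by limma (4 higher and 3 lower at an unadjusted p under 0.05), 3 rose and 0 fell at 12 h (4 and 4 at an unadjusted p under 0.05), and 4 rose and 2 fell at 24 h. RCN1, a calcium-binding ER protein, was the 1 at 3 h (0.15, adjusted p = 0.00949). At 24 h ORAI1, on this list although its channel lies in the plasma membrane, rose (0.50, adjusted p = 1.29e-07). At the same time RCN2 fell (-0.13, adjusted p = 0.000501), and the calcium pump gene ATP2A2 fell (-0.063, adjusted p = 0.00879).

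Most genes called in the ATF4 and CHOP list rose in the same samples. Of 35 genes tested, 14 rose and 1 fell at 3 h, 26 rose and 1 fell at 6 h, 27 rose and 1 fell at 12 h, and 31 rose and 1 fell at 24 h, with medians of 0.14, 0.27, 0.28 and 0.41. Of all genes tested, 1.18%, 4.07%, 8.85% and 20.8% were called higher and 1.28%, 6.13%, 11.2% and 21.3% lower at those times. At 24 h ATF4 itself was 224 ± 3.77 FPKM in vehicle and 298 ± 19.7 in CBD (log2 fold change 0.41, adjusted p = 7.1e-10). CHAC1, which degrades glutathione, had the highest value at 3 h (1.08, adjusted p = 5.29e-08) and the cystine transporter gene SLC7A11 at 24 h (1.41, adjusted p = 3.14e-12). The vehicle means of SLC7A11 were 1.01, 0.715, 0.613 and 0.667 FPKM at 3, 6, 12 and 24 h. It passed the filter of 1 FPKM only through its CBD samples (3.53 FPKM at 24 h), so its value is near the floor. VLDLR, a lipoprotein receptor, was the 1 that fell, at 3 h (-0.14, adjusted p = 0.000139) and at 24 h (-0.34, adjusted p = 4.15e-13). DDIT3, which encodes CHOP, TRIB3, ASNS and PPP1R15A gave 1.29, 0.90, 0.86 and 0.32 at 24 h, all called. The list was chosen with earlier results of these samples known, so its direction is not independent evidence.

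**Figure D4:**
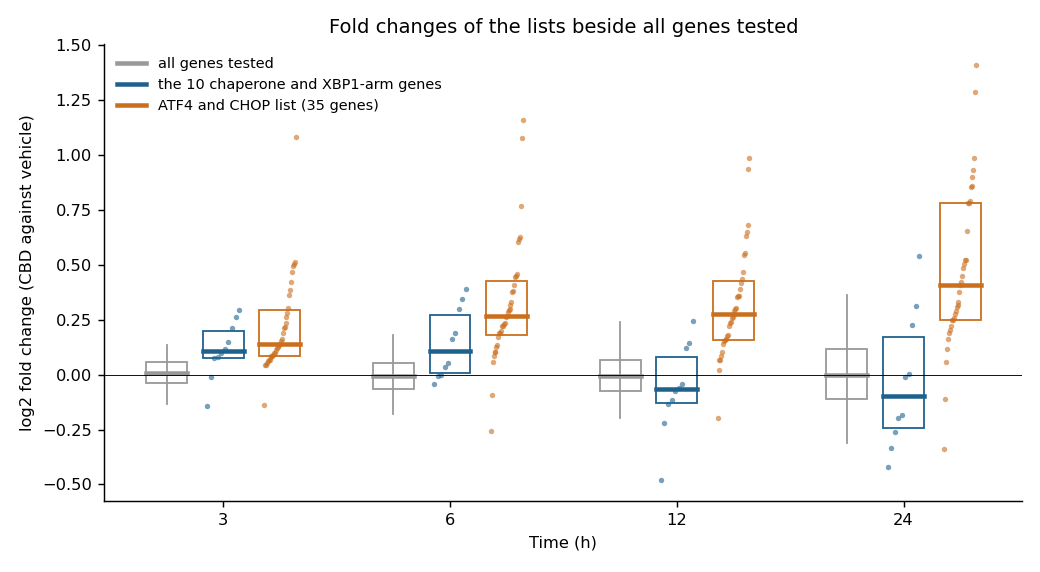
log2 fold change of CBD against vehicle (vertical axis) at 3, 6, 12 and 24 h for all genes tested (grey, quartile box and 5th to 95th percentile line), the 10 genes (blue) and the ATF4 and CHOP list of 35 (orange), with a point per gene spread sideways by rank, quartile boxes and thick median lines. The orange medians lie at 0.14, 0.27, 0.28 and 0.41, and the blue medians pass from 0.11 at 3 and 6 h to -0.067 and -0.097.

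At 24 h the CBD replicates differed in several of the genes that rose. XBP1 gave 44.4, 39.95, 44.8 and 35.1 FPKM, HERPUD1 38.96, 31.9, 39.2 and 29.9, DDIT3 41.6, 35.6, 43.5 and 28.5 and TRIB3 15.3, 10.04, 15.4 and 9.01, in replicate order. Replicates 1 and 3 were the high pair in these 4 genes, and replicate 4 was the lowest. The same split stood in DNAJB9, with 10.8, 10.1, 10.3 and 10.04 FPKM. It also stood in ATF4 (313, 299, 311 and 270), CHAC1 (13.6, 10.6, 13.5 and 8.89) and ASNS (166, 153, 164 and 136). Replicates 1 and 3 were also the highest CBD samples of HSPA5, over a narrow range, but not of CALR. In HSPA5 the CBD samples at 24 h lay between 36.1 and 38.7 FPKM, and in CALR between 139 and 141 FPKM. The relative depth of the 4 CBD samples was 1.027, 1.068, 0.976 and 0.936. The summed level of the 10 neuroblastoma markers at 24 h was 2580 to 2704 FPKM in CBD and 3090.4 to 3161 in vehicle, and that of the 10 markers of other cell types, with none at 0 in all samples, was 7.87 to 8.76 in CBD and 6.89 to 7.28 in vehicle. Their part in the 24 h results was not tested.

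**Figure D5:**
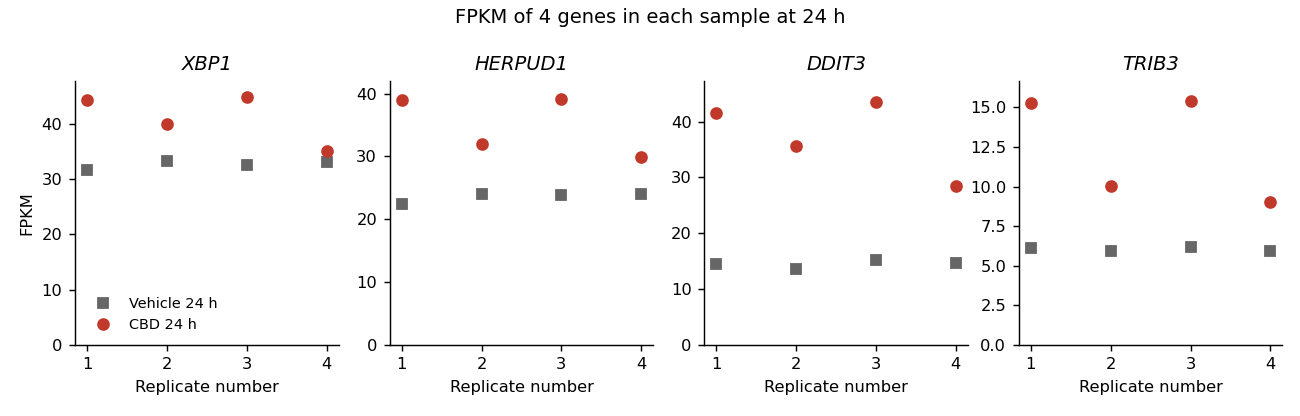
FPKM (vertical axis from 0) of XBP1, HERPUD1, DDIT3 and TRIB3 in each of the 4 vehicle (grey squares) and 4 CBD samples (red circles) at 24 h, by replicate number. The numbers are not taken to pair samples between treatments. In all 4 genes CBD replicates 1 and 3 are the high pair and replicate 4 is the lowest CBD sample.

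Reads could also be shared with other genes. Of the 50-base words in the transcripts of each gene, 7.59% for HSP90B1, 7.07% for CALR, 5.47% for HSPA5 and 3.02% for CRELD2 also occur in transcripts of other annotated genes on either strand, pseudogenes and overlapping genes included. For the other 6 genes the share was at most 0.293%.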

How the data were processed

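mRNA libraries of 32 samples were sequenced as single reads. Per the labels and the study's methods, reads were trimmed with Trimmomatic 0.36, aligned to hg19 with TopHat (the sources give different versions) and summarised by Cufflinks and Cuffdiff. The authors deposited FPKM values per gene and sample, which were used as deposited. A second table of their own fold changes and q-values was not used. FPKM hold no read totals, so depth is known only in relative terms (0.794 to 1.198 over samples), and low genes are less precise.

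Genes with a mean of at least 1 FPKM (12621 of 22610 entries) were tested with limma 3.58.1 in R 4.3.3 on log2(FPKM + 1), with 8 group means, moderated variances with an intensity trend and Benjamini-Hochberg adjustment, at an adjusted p of 0.01. The same code was tested on simulated data. Samples were grouped by the treatment and time in the labels. The members and gene lists were chosen with earlier results of these data known. Named were all 10 members, key genes of each list, the called list genes with the extreme values at 3 and 24 h, and the 5 genes most like the members' mean pattern. A gene that this rule also names is not reported here. Alternatives changed the value added, filter, scaling, samples fitted, replicate number, depth term, trend and threshold, and left out each sample. Motifs were searched with Python 3 in RefSeq promoter windows.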

Additional observations from a re-analysis of the deposited data

Results flagged for a closer look

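Single samples stood far from the other 3 of their group in 6 of 80 groups examined (10 genes in 8 groups), where chance alone flags about 1 in 20 groups. HSPA5 was low in 1 vehicle sample at 3 h (59.4 FPKM) and high in 1 CBD sample at 3 h (83.4 FPKM). HSP90B1 was low in 1 vehicle sample at 6 h (174 FPKM) and in 1 at 12 h (194 FPKM). PDIA4 was low in 1 vehicle sample at 12 h (30.6 FPKM), and CRELD2 was high in 1 CBD sample at 6 h (6.48 FPKM).

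The CBD effect differed between times by the tested difference of differences in 13 cases. Between 3 and 12 h the log2 effect changed by -0.69 for HSPA5, -0.30 for PDIA4, -0.21 for CALR and 0.26 for DNAJB9. Between 3 and 24 h it changed by -0.63 for HSPA5, -0.41 for CALR, -0.36 for CRELD2, -0.27 for PDIA4, 0.28 for HERPUD1 and 0.24 for DNAJB9. Between 6 and 12 h, a comparison added after the values were seen, it changed by -0.64 for HSPA5, -0.28 for PDIA4 and -0.17 for CALR.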

How the results depend on the processing

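Called values of the 10 genes kept their direction in every alternative, and the 27 changes of sign all concerned values with an adjusted p above 0.01. Over all genes, 310 were called at 3 h, 1288 at 6 h, 1236 and 294 for the effect at 12 minus 3 h and minus 6 h, and 1196 for vehicle at 6 against 3 h. At 3 h the 3 called genes became 1 with relative depth as a term, 5 at a threshold of 0.05, and 1 to 2 when 1 sample was left out. Fits of only the groups compared called 2 of the 10 at 6 h, 5 for CBD at 24 against 3 h and 3 for vehicle at 6 against 3 h, in place of 4, 8 and 5. The vehicle count at 6 against 3 h was also 3 without a filter, with median-ratio scaling or with quantile normalization. A threshold of 0.05 gave 5 for the effect at 12 minus 6 h. Over all genes, fits of only the groups compared called 29 at 3 h, 425 at 6 h, 713 for the effect at 12 minus 3 h and 391 for vehicle at 6 against 3 h. A threshold of 0.05 called 917 at 3 h, 2434 at 6 h, 2454 and 799 for the effect at 12 minus 3 h and minus 6 h, and 2351 for vehicle at 6 against 3 h, and a depth term 190 at 3 h. The cause was not tested.

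Leaving out 1 sample gave 3 to 4 members called at 6 h, 4 at 12 h, 7 at 24 h, 4 to 5 and 5 to 6 for the effect at 12 and 24 minus 3 h, 3 to 4 for the effect at 12 minus 6 h, 7 to 8 and 3 to 4 for vehicle at 24 and 6 against 3 h, and 7 to 9 for CBD at 24 against 3 h. Over all genes the ranges in that order were 164 to 493 at 3 h, 923 to 1543, 1989 to 2422, 4772 to 5001, 942 to 1614, 3120 to 3766, 183 to 366, 6767 to 7057, 743 to 981 and 8199 to 8479.

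Signs changed for DNAJC3 at 6 h (0.0056 with median-ratio scaling, 0.0077 with quantile normalization, 0.014 with depth) and at 24 h (-0.00017 and -0.033 with those scalings), for CRELD2 at 6 h (0.00066 with median-ratio scaling) and for HSP90B1 in CBD at 24 against 3 h (0.039 with quantile normalization). With 1 sample left out, log2 values ranged from -0.045 to 0.028 for DNAJB9 at 3 h, -0.042 to 0.032 for CRELD2, -0.016 to 0.014 for DNAJC3 and -0.12 to 0.0046 for HSP90B1 at 6 h, -0.019 to 0.014 for DNAJC3 and -0.061 to 0.038 for SDF2L1 at 24 h, -0.12 to 0.0019 for HSP90B1 in the effect at 12 minus 6 h, and -0.024 to 0.091 for XBP1 in the effect at 24 minus 3 h.

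With the replicate number as a replicate block within each time, 1 gene was called at 3 h in place of 3, since HSPA5 (adjusted p = 0.0107, limma) and HERPUD1 (0.0131) missed the threshold. SDF2L1 at 6 h (0.0156) and HERPUD1 in the effect at 24 minus 3 h (0.0131) missed it as well. With a replicate block over all times DNAJC3 at 3 h (0.00867) and HSPA5 at 6 h (0.00709) passed it. Neither block changed another call or moved another count by over 1.5 times, and the block within times could not be fitted for comparisons between times of 1 treatment. Deviations of samples sharing a number correlated from -0.0757 to 0.0935 over 16 pairs, and 5 of 16 matched their own number best. No pairing by number was seen, but with 4 samples a group these values cannot show that there was none. DNAJC3 lies under a filter of at least 5 FPKM, so that setting gave it no value. Depth limits what low genes such as DNAJC3 and CRELD2 can show.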

Other observations

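Genes of ER import, export and degradation also changed with time in vehicle. Of 26 translocation and export genes tested, 20 fell and 1 rose between 3 and 24 h in vehicle (median log2 change -0.23), and 17 fell and 4 rose in CBD (median -0.22). Of 23 genes of ER-associated degradation, 13 fell and 3 rose in vehicle (median -0.17), and 14 fell and 5 rose in CBD (median -0.24). Of 36 folding and disulfide genes, 13 fell and 15 rose in vehicle. Of all genes tested, 31.1% fell and 26.6% rose in vehicle, and 35.7% fell and 32.1% rose in CBD.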
